A study of Mus musculus with 2 samples.

Results

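The mir-183 cluster of the mouse consists of 3 miRNA genes, Mir183, Mir96 and Mir182. They were chosen by name, with earlier results of these data known, from the 2202 miRNA genes in the count tables of 2 small RNA libraries. Both libraries were made from total RNA of tissue labelled as layer of hippocampus, from 36-day-old female mice of the strain B6CASTF1/J. This strain is a first-generation cross of the inbred strains C57BL/6J and CAST/EiJ. The labels number the libraries biological replicates 2 and 1 of 1 group, name no treatment and give them separate biosample entries under the same donor entry. No condition was contrasted, and differences between the libraries may be technical, since nothing in the labels ties each library to a separate animal. Replicate 2 had 3644157 sense reads on miRNA genes and replicate 1 had 2928141, and levels below are reads per 1000000 of these (CPM). Reads with several places in the genome made up 45.8% of all reads in replicate 2 and 38.9% in replicate 1, and unplaced reads 14.7% and 26.8% in the same order. The tissue label was set against marker miRNAs. All 7 genes of a neuron list were detected with at least 10 reads in both libraries. Their summed level was 42068 CPM in replicate 2 and 37043 CPM in replicate 1. Of all 2202 genes, 419 were detected in replicate 2 and 387 in replicate 1. Every gene of the astrocyte, oligodendrocyte, vascular, erythroid and endocrine lists was also detected in both. Detection therefore does not set the neuron list apart from these.

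MicroRNAs guide Argonaute proteins to messenger RNAs, mainly through the seed, bases 2 to 8 counted from the 5′ end of the mature strand. The mir-183 cluster is transcribed as 1 primary transcript in sensory cells and is known for its high level in photoreceptors, hair cells of the inner ear, sensory ganglia and the pineal gland. In mice, loss of the cluster impairs the retina, and seed mutations of Mir96 cause hearing loss in mice and humans. In mouse hippocampus, the cluster has been linked to long-term memory through protein phosphatase 1. FoxO transcription factors are among the known targets of miR-182 and miR-96.

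The mature strands of the 3 genes, taken from RefSeq (build GRCm38.p6), are printed 5′ to 3′ with the seed in capitals, because the seeds decide which other miRNAs are relatives of the cluster.
miR-183-5p: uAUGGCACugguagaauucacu
miR-96-5p: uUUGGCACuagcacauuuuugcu
miR-182-5p: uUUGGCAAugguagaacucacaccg
miR-183-3p: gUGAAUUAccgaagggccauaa
miR-96-3p: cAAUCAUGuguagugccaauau
miR-182-3p: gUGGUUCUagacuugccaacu

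The 5p strands form a family of related sequences. From miR-182-5p to miR-96-5p the seed differs by A8C, from miR-183-5p to miR-96-5p by A2U, and from miR-182-5p to miR-183-5p by U2A and A8C, with positions counted from the 5′ end. Aligned at the 5′ end without gaps, miR-182-5p and miR-183-5p were identical at 18 of 22 positions (81.8%) and share the run UGGUAGAA at bases 9 to 16. The pair of miR-182-5p and miR-96-5p was identical at 12 of 23 positions (52.2%), with the shared run at bases 1 to 7. No seed was shared among the 3p strands.

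The hairpins are printed with both mature strands in capitals, since reads were counted per hairpin gene and the strands of a hairpin cannot be told apart in the counts.
Mir183: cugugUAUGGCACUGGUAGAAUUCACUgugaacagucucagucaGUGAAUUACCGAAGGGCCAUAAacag
Mir96: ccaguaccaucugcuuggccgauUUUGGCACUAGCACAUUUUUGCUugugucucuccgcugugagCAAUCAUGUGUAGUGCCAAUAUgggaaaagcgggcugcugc
Mir182: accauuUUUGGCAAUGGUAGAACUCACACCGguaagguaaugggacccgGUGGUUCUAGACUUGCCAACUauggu

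On assembly mm10 all 3 genes lie on the minus strand of chromosome 6. Mir183 (ENSMUSG00000065619.2) spans 30169668 to 30169737, Mir96 (ENSMUSG00000065586.1) 30169446 to 30169551 and Mir182 (ENSMUSG00000076361.1) 30165918 to 30165992. Transcription therefore meets Mir183 first, Mir96 after 116 bases and Mir182 after another 3453 bases, within a span of 3820 bases. No annotated gene of GENCODE M21 overlaps any of them, on either strand. The lincRNA gene Rncr4, first described in retina, begins 3.16 kb away on the plus strand, and Nrf1, a transcription factor for genes of mitochondrial function, ends 12.5 kb away on the other side. None of the 3 hairpins shares a stretch of 20 bases with another of the 2202 annotated hairpins. Each of the 6 mature strands occurred in its own gene and in no other gene among 141767 annotated transcripts, in either orientation. Copies in unannotated sequence were not analysed here.

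**Figure D1:**
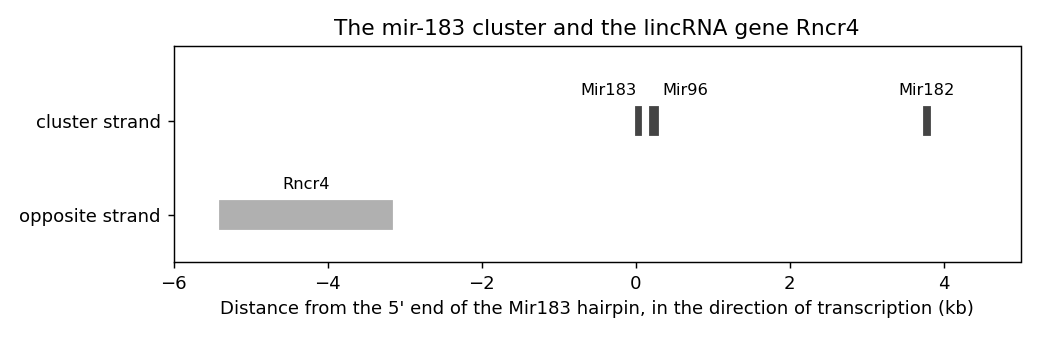
Positions of the 3 hairpins and of Rncr4 on the cluster strand and the opposite strand, as distance in kb from the 5′ end of the Mir183 hairpin in the direction in which the cluster is transcribed. Mir183 and Mir96 lie side by side, Mir182 lies apart from them, and Rncr4 points away from the cluster.

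The cluster was at a low level and differed between the libraries by more than most miRNA genes did. Mir183, Mir96 and Mir182 together held 977 reads in replicate 2 and 34 reads in replicate 1, which are 268 CPM and 11.6 CPM (139.9 ± 181 CPM, SD, n = 2). The total was 23.1-fold higher in replicate 2, with an exact 95% counting interval of 16.4 to 33.5. Since no molecular identifiers were used to count reads, this and all other intervals cover counting error alone. In bulk tissue, fewer cells of a type and less RNA per cell cannot be told apart.

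Mir182 had 509 reads (139.7 CPM) in replicate 2 and 7 reads (2.39 CPM) in replicate 1. It ranked 186th of 2202 genes in replicate 2 and 414th in replicate 1, where it fell short of the 10 reads taken as detection. Only 678 of the 2202 genes had a read in replicate 2, and 622 in replicate 1. The level was 58.4-fold higher in replicate 2 (exact 95% interval 28.2 to 146). The width of that interval comes from the 7 reads of replicate 1.

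Mir183 had 463 reads (127 CPM) in replicate 2 and 27 reads (9.22 CPM) in replicate 1, and was detected in both. It ranked 194th in replicate 2 and 313th in replicate 1. The level was 13.8-fold higher in replicate 2 (exact 95% interval 9.35 to 21.1).

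Mir96 had 5 reads (1.37 CPM) in replicate 2 and 0 reads in replicate 1, where a count of 0 allows up to 3 reads or 1.02 CPM. It was detected in neither library. Set against that floor, the ratio of its levels was 1.34, which is no lower limit. The exact interval on the reads reached down to 0.736-fold, and the gene had too few reads for the test below. At this depth, the interval of Mir96 held both an equal level and the ratio of Mir182.

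**Figure D2:**
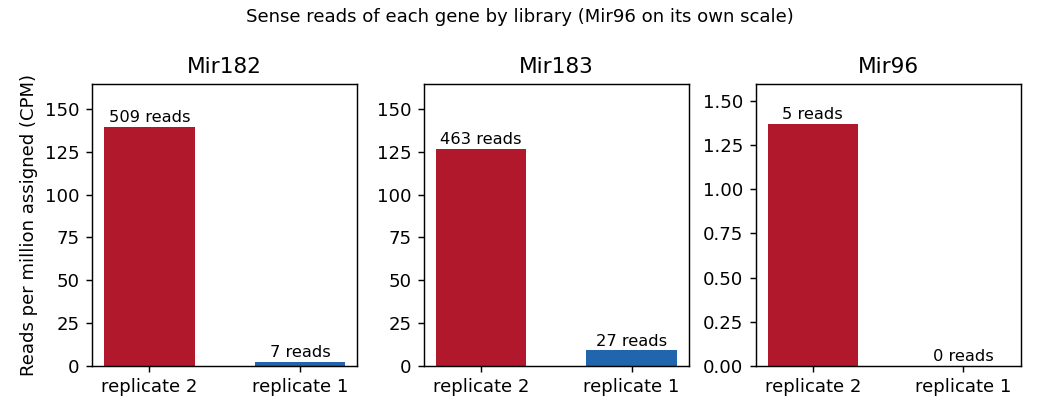
Level of Mir182, Mir183 and Mir96 in CPM (vertical axis) in replicates 2 and 1, with the number of sense reads above each bar. Mir182 stood at 509 and 7 reads, Mir183 at 463 and 27, and Mir96, on a scale of its own, at 5 and 0.

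The share of each gene in the cluster's reads was not the same in both libraries. In replicate 2 the ratio of Mir182 to Mir183 reads was 1.10 (exact 95% interval 0.967 to 1.25), so these neighbours in level were not told apart. In replicate 1 it was 0.259 (0.0953 to 0.610), with Mir183 above Mir182. Mir182 made up 52.1% of the cluster's reads in replicate 2, with exact Clopper-Pearson 95% limits of 48.9% and 55.3%, and 20.6% in replicate 1, with limits of 8.70% and 37.9%. Mir183 made up 47.4% in replicate 2 (limits 44.2% and 50.6%) and 79.4% in replicate 1 (limits 62.1% and 91.3%). Mir96 made up 0.512% in replicate 2 (limits 0.166% and 1.19%), and with 0 of 34 reads in replicate 1 its share could be up to 10.3%. Per base of hairpin the values were 6.79 reads for Mir182, 6.61 for Mir183 and 0.0472 for Mir96 in replicate 2, and 0.0933, 0.386 and 0 in replicate 1.

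No antisense read lay at any of the 3 genes in either library, and counting without strand gave the same numbers of reads.

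Whether a gene's reads differed between the libraries was tested across all genes by an exact binomial test (two-sided, given the library totals), with Benjamini-Hochberg adjustment over the 474 genes whose summed count reached 10. It sets 1 library against the other, not conditions, and allows for no noise beyond counting. It called 58.0% of the genes, of which 150 (31.6% of those tested) were higher in replicate 2 and 125 (26.4%) lower, or 194 and 73 when scaled by every read in the table. Both tested members, Mir182 (adjusted p = 3.57e-117) and Mir183 (adjusted p = 3.38e-83), were called higher in replicate 2, while Mir96 was not tested. A call by itself was thus the outcome for most genes. Of all tested genes, 10.1% were called at least 2-fold higher in replicate 2, and both tested members were among them.

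The size of the difference stood at the edge of all genes. For the 399 genes whose mean count reached 10, log2 ratios (replicate 2 over replicate 1, pseudocount of 1 CPM) had a median of 0.03 and an SD of 0.86, and 83.7% of genes lay within 2-fold. On this scale Mir182 was at 5.37 and Mir183 at 3.65, ranks 1 and 3 in absolute size, with Mir1298 (4.13) between them. The largest difference in the other direction was that of Mir31, at -3.26. Among 68 other genes with mean counts between 100 and 500, the range that holds Mir182 and Mir183, the log2 ratio ran from -1.20 to 3.14 with an SD of 0.77. Both members lay outside this range. The members were chosen with earlier results of these data known, so their place among all genes is a description only.

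**Figure D3:**
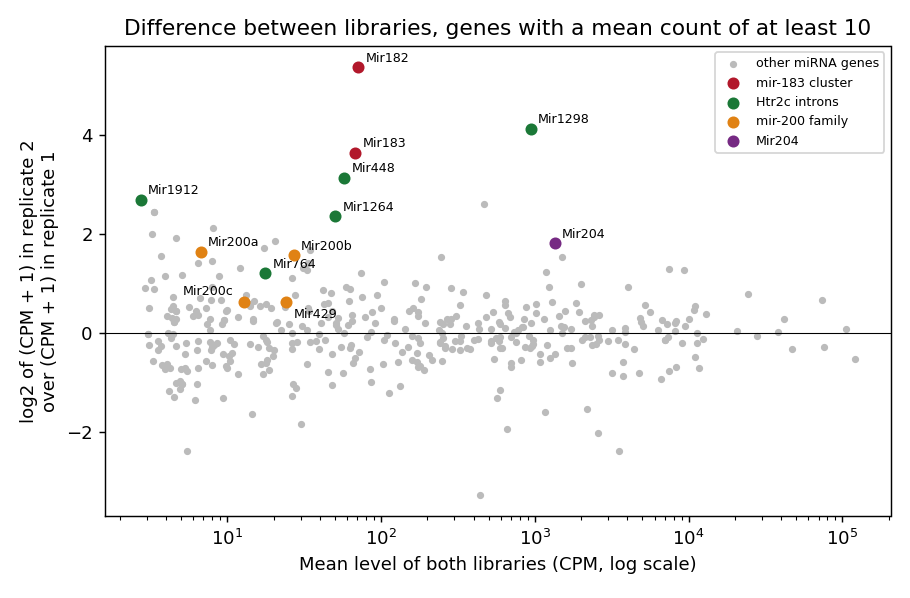
Log2 ratio of CPM + 1 in replicate 2 over replicate 1 (vertical axis) against the mean level in CPM (horizontal log axis) for the 399 miRNA genes whose mean count reached 10, with named groups in colour. Mir182 (5.37) is the highest point and Mir183 (3.65) lies below Mir1298 (4.13), while Mir96 has too few reads to be shown.

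Genes with ratios most like that of the cluster total (4.42 on the same log2 scale) were sought among the 345 other genes whose mean count reached 20. The nearest were Mir1298, with 6497 reads in replicate 2 and 295 in replicate 1 (17.7-fold, exact 95% interval 15.7 to 20.0), and Mir448, with 380 and 32 reads (9.54-fold, 6.64 to 14.2), both inside the serotonin receptor gene Htr2c. They were followed by Mir301, inside Ska2, with 2941 and 381 reads (6.20-fold, 5.57 to 6.92), Mir1264, also inside Htr2c, with 311 and 46 reads (5.43-fold, 3.98 to 7.58), and Mir547 with 50 and 7 reads (5.74-fold). The next largest ratios in this direction belonged to Mir34b (3.98-fold), Mir204 (3.55-fold), Mir26a-1 (3.62-fold), Mir214 (3.37-fold) and Mir200a (3.92-fold). Likeness here means a similar ratio over 2 libraries and nothing more.

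The cluster was set against 3 groups of genes with Fisher's exact test (two-sided, adjusted over the 3 groups), which asks whether its ratio between libraries differed from theirs. Like the members, these groups were chosen with earlier results of these data known. The test sums the reads of several genes and allows for no noise beyond counting, so its p-values measure no spread between libraries. With the same limit, Fisher's exact test called 68.5% of the 384 clustered pairs described below, so a small p-value was a usual outcome. The mir-200 family, miRNAs of epithelial cells that maintain the epithelial state, held 358 reads in replicate 2, against 138 in replicate 1, and was 2.08-fold higher in replicate 2 (exact 95% interval 1.71 to 2.56). The ratio of the cluster was 11.1 times that of the mir-200 family (adjusted p = 5.42e-42). Within the family, Mir200b (149 and 38 reads), Mir200a (39 and 8) and Mir429 (108 and 55) were called higher in replicate 2, whereas Mir200c (58 and 29) and Mir141 (4 and 8) were not called. The smallest of the family's ratios was that of Mir141 (0.402) and the highest that of Mir200a (3.92).

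Mir204 and Mir211, in Trpm3 and Trpm1 and known from choroid plexus, pigment epithelium and melanocytes, held 7661 reads in replicate 2 and 1738 in replicate 1 (3.54-fold, exact 95% interval 3.36 to 3.73). All but 4 and 3 of these belonged to Mir204. The ratio of the cluster was 6.52 times theirs (adjusted p = 9.40e-45).

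The 5 miRNAs inside Htr2c held 7300 reads in replicate 2 and 403 in replicate 1 (14.6-fold, exact 95% interval 13.2 to 16.1), and all 5 were called higher in replicate 2, as were 31.6% of all genes tested. Besides Mir1298, Mir448 and Mir1264 these were Mir764, with 92 and 30 reads, and Mir1912, with 20 and 0 reads. The ratio of the cluster was 1.59 times theirs (adjusted p = 0.00905). This value depended on 1 gene on each side. Without Mir182 the cluster's ratio was 0.957 times that of the Htr2c miRNAs (adjusted p = 0.835), and without Mir1298, which held 6497 of the 7300 Htr2c reads in replicate 2, the whole cluster's ratio was 3.86 times that of the other 4 (adjusted p = 1.10e-12).

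**Figure D4:**
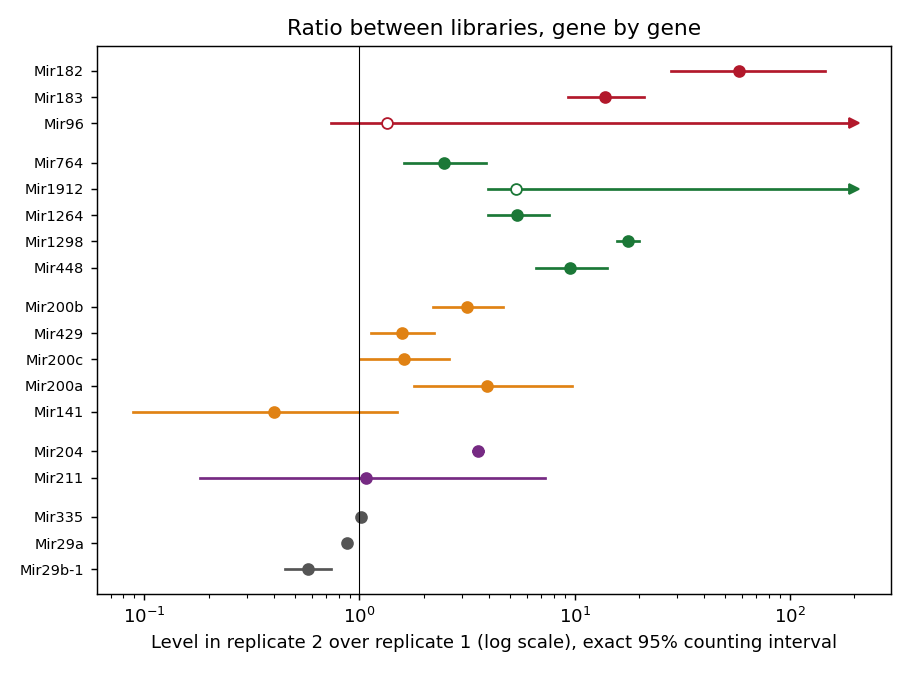
Level in replicate 2 over replicate 1 (horizontal log axis) with exact 95% counting intervals, for the cluster (red), the Htr2c miRNAs (green), the mir-200 family (orange), Mir204 and Mir211 (purple) and neighbours of the cluster on chromosome 6 (grey). Open circles are ratios against a floor of 3 counts, with an open upper end. Mir182 (58.4) and Mir183 (13.8) lie to the right of the mir-200 family, whose highest ratio is 3.92.

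Neighbouring miRNA genes on chromosome 6 did not show this difference. Within 1 Mb of the cluster, 3 of 6 other genes had more than 1 read, while Gm26220 had 1 read in replicate 2 and 0 in replicate 1, and Gm44354 and Gm23049 had 0 in both. Mir335, inside the imprinted gene Mest and 572 kb away, had 14091 reads in replicate 2 and 11108 in replicate 1 and was not called (1.02-fold, exact 95% interval 0.994 to 1.05). Mir29a and Mir29b-1, 893 kb away, were called lower in replicate 2, with 8396 CPM in replicate 2 and 9631 CPM in replicate 1 for Mir29a (0.872-fold), and 32.9 and 57.0 CPM for Mir29b-1 (0.577-fold). The 92 other miRNA genes of chromosome 6 summed to 46776 reads in replicate 2 and 40534 in replicate 1 (0.927-fold, exact 95% interval 0.915 to 0.940), most of them from Mir29a and Mir335. The 11 among them whose mean count reached 10 had a median log2 ratio of 0.60 (0.03 over all 399 genes), above 0, and a range from -0.77 to 1.28, all below Mir182 and Mir183.

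Mir182 and Mir183 differed from each other as well. The number of Mir182 reads per Mir183 read was 4.24 times as high in replicate 2 as in replicate 1 (Fisher's exact test, two-sided, p = 3.30e-04). The same test was run on every pair of miRNA genes within 10 kb on 1 strand, both with mean counts of 10 or more, and 68.5% of the 384 pairs were called after adjustment over all pairs. The pair of Mir182 and Mir183 was among them (adjusted p = 6.52e-04), so a call was the usual outcome for clustered genes. Mir96 formed no such pair because of its low count.

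In size, the difference between Mir182 and Mir183 was among the larger ones. With the pseudocount of 1 CPM, their log2 ratios differed by 1.73. The median over the 383 other pairs was 0.47 (quartiles 0.22 and 0.80), and 7 of these pairs differed by at least as much. The pseudocount narrowed the difference between Mir182 and Mir183, whose log2 ratios without it were 5.87 and 3.78. Other pairs were not compared without it, so the place of this pair holds for the pseudocount scale alone. In a single other pair, Mir1912 and Mir1264 of Htr2c, both genes had a log2 ratio of at least 2, at 2.70 and 2.37. Pairs of 1 cluster share genes and are not independent of each other. Of the 383 other pairs, 295 were on chromosome 12, and over the remaining 88 the median difference was 0.50 and 5 pairs differed by at least 1.73.

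**Figure D5:**
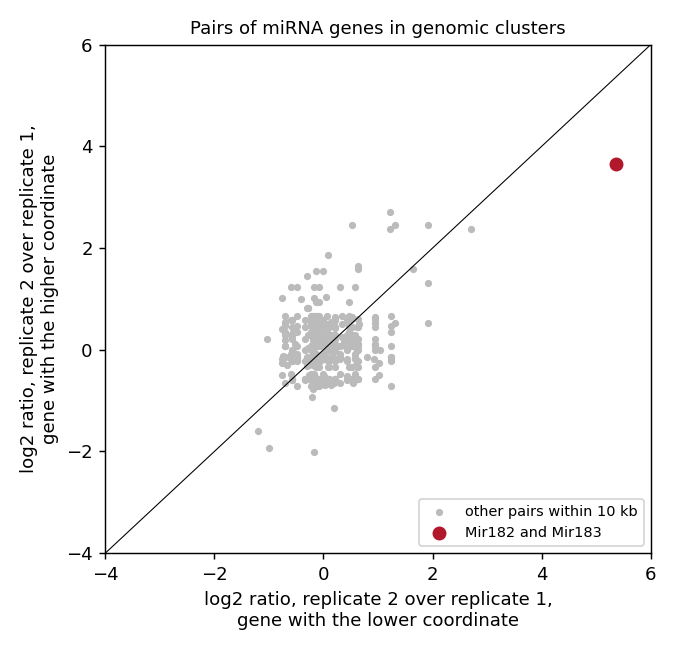
Log2 ratio of replicate 2 over replicate 1 for both genes of each pair of miRNA genes within 10 kb on 1 strand, with the gene of lower coordinate on the horizontal axis and the diagonal marking equal ratios. Mir182 and Mir183 (5.37 and 3.65) lie apart from the 383 other pairs, high on both axes and below the diagonal.

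Other miRNAs with a seed of the cluster were few. Among 1738 mature strands in the RefSeq table, miR-96-5p shares its seed with miR-1271-5p of the gene Gm24195, printed here with the seed in capitals.
miR-1271-5p: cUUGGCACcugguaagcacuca
Gm24195 had no sense read in either library and 5 antisense reads in replicate 1. The seed of miR-96-3p recurs in Mir3475, which had 1078 reads in replicate 2 and 703 in replicate 1 (1.23-fold, exact 95% interval 1.12 to 1.36). No other strand carried the seed of miR-182-5p or miR-183-5p.

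Markers of other cell types also differed between the libraries, and their part in the cluster's difference was not tested. A list of choroid plexus and ciliated cells had 4 of 7 genes detected in both libraries and summed to 2661 CPM in replicate 2 and 1147 CPM in replicate 1, of which Mir204 alone held 2101 and 593 CPM. Without Mir204 its other 6 genes summed to 559.8 CPM in replicate 2 and 555 CPM in replicate 1. On this list, Mir204 and Mir34b were called higher in replicate 2 and Mir449a lower, with Mir449b at 0 in both libraries and Mir449c at 0 in replicate 2. An epithelial list had 4 of 7 genes detected and summed to 154 CPM in replicate 2 and 78.2 CPM in replicate 1, and none of its 7 genes was at 0. It contains the 5 genes of the mir-200 family described above, which held 98.2 and 47.1 CPM of these sums, and so is no separate result. On it, 4 genes were called higher in replicate 2, as were 31.6% of all genes tested. Lower in replicate 2 were an astrocyte list (12595 and 18090 CPM, 6 of 6 detected, 6 called), an oligodendrocyte list (2536 and 5352 CPM, 3 of 3 detected, 2 called) and an erythroid list (339.7 and 1176 CPM, 3 of 3 detected, 3 called), where 26.4% of all genes tested were called in that direction. Median log2 ratios were taken over genes whose mean count reached 10. This kept 4 of 7 genes for choroid plexus and ciliated cells and 5 of 7 for epithelium. The genes left out were at 0.05 (Mir211), 0.00 (Mir449b, without reads) and -0.75 (Mir449c) in the former list. In the latter they were at -0.83 (Mir141) and -0.03 (Mir205). The medians were 0.95 and 0.87 for these lists, in that order, beside 0.03 over all 399 genes. They were -0.99 for astrocytes, -0.59 for oligodendrocytes and -0.99 for erythroid cells. The other lists were at 0.47 for neurons, 0.17 for microglia and leukocytes, 0.21 for vascular cells, -0.17 for endocrine cells and -0.53 for the Hox clusters (3 of 6 genes). By sum, the vascular list went the other way, with 15579 CPM in replicate 2 and 19436 CPM in replicate 1. Sums of the endocrine list (3977 and 4197 CPM) and the Hox list (51.3 and 84.4 CPM) were lower in replicate 2. Those of the neuron list (42068 and 37043 CPM) and the microglia and leukocyte list (1881 and 1589 CPM) were higher. The endocrine genes did not move together. Mir375 was called higher in replicate 2 (364 and 123 CPM) and the other 3 lower, among them Mir7b, which held most of the sums (3302 and 3635 CPM).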

How the data were processed

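The authors deposited whole-number read counts per miRNA gene for each library in 3 unnamed columns, made on assembly mm10 with GENCODE M21, per the accompanying notes. The columns were read, from their totals, as unstranded, sense and antisense counts. The aligner is not given in the sources used here. Rows that name no gene held 65.3% of reads in replicate 2 and 69.5% in replicate 1 and stayed out of totals and tests. All 2202 identifiers matched GENCODE M21. Sequences came from RefSeq (GRCm38.p6), whose hairpin coordinates equalled those of GENCODE for the 3 genes; 968 of its hairpin entries carry a symbol of the count tables.

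The ratio is replicate 2 over replicate 1. With 1 group there are no residual degrees of freedom for a count model between the libraries, so exact binomial tests (threshold 0.05) and Fisher's exact tests were used. Composition was adjusted over all 384 clustered pairs in place of the 3 pairs of members. A count of 0 was taken to allow 3 reads, or 0.823 CPM (replicate 2) and 1.02 CPM (replicate 1), and 10 reads are 2.74 and 3.42 CPM in that order. The scripts were tested on simulated data. The members, comparison groups and marker lists were chosen with earlier results of these data known. The text names the members, strands of shared seed, comparison groups, miRNA genes within 1 Mb, the 5 genes of nearest ratio and the 5 next largest. Marker genes, Mir31 and the abundance range of 100 to 500 counts, and the list without Mir204, were added after their values were seen. Alternatives were TMM (edgeR 4.0.16) and DESeq2 (1.42.0) scaling, other totals, counts without strand, other filters and distances, and leaving out a replicate or a gene. Python 3.11.15, scipy 1.17.1, numpy 2.4.6, pandas 2.3.3, matplotlib 3.10.9 and R 4.3.3 were used.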

Additional observations from a re-analysis of the deposited data

How the results depend on the processing

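Of 60 alternative values set out at the start, 59 kept the direction and the side of the threshold, or stayed within set limits. These limits were 1 SD for levels and 1.5-fold for counts. The exception among the 60 was the comparison of the cluster with the Htr2c miRNAs, whose ratio of 1.59 turned to 0.957 without Mir182. Some of the 59 could not have changed. With 2 libraries, levels stay within 1 SD by construction when 1 is left out. For the cluster total the SD of 181 CPM exceeded the mean of 139.9 CPM, so no lower level could fall outside it. Fisher's exact tests on counts without strand used the same reads as the main tests. Over the 5 scalings and strand settings, the ratio of the cluster total ran from 22.0 to 26.3, that of Mir182 from 55.7 to 66.5, that of Mir183 from 13.1 to 15.7 and that of Mir96 from 1.28 to 1.52. Scaling by every read in the table moved every log2 ratio by 0.19, and 72.7% of called genes were then higher in replicate 2, against 54.5% by plain totals. The level of the cluster, 139.9 CPM on average, was 268 CPM without replicate 1 and 11.6 CPM without replicate 2, and scaling by every read in the table put it at 48.3 per 1000000 reads and Mir182 at 24.6 in place of 71.0. Leaving Mir204 out of the choroid plexus and ciliated cell list, chosen after seeing the data, moved its summed ratio to 1.01 against 2.32 with it. No paired analysis was possible because all samples form 1 group. Depth limits Mir96, with 5 reads in all, and the ratio of Mir182, with 7 reads in replicate 1.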

Other observations

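Elsewhere in the genome, several pairs of neighbouring miRNA genes differed in log2 ratio by at least as much as Mir182 and Mir183. This holds on the scale with a pseudocount of 1 CPM, which narrowed the difference between Mir182 and Mir183. Without it their log2 ratios were 5.87 and 3.78, in place of 5.37 and 3.65, and pairs were not ranked on that scale. Mir298 had 3758 reads in replicate 2 and 12166 in replicate 1, while its neighbour Mir296 had 2590 and 2352. Mir34b had 119 reads in replicate 2 and 24 in replicate 1, while its neighbour Mir34c had 1624 and 1233; both are known from ciliated cells. On chromosome 12, Mir668 had 6083 reads in replicate 2 and 2084 in replicate 1, while Mir381 had 2031 and 2466. These pairs were picked after their values were seen.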
